A study of Mus musculus with 14 samples.

Results

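Sox2, Pax6, Eomes, Tbr1, Neurod1, Neurod2, Neurod6, Dlx1 and Dlx2 are transcription factors that mark successive steps and regions of neurogenesis. They were followed here in newborn wild-type (WT) mice and in newborn mice with a trapped Cugbp1 gene. The 9 genes were taken by their symbols in the probe annotation, with all 14 probes that carry these symbols, out of 21893 genes and 30626 named probes. The rule used no measured value, but the 9 genes were chosen with earlier results of these data known. Each gene was represented by its brightest probe over all arrays, and Pax6, Eomes, Tbr1, Neurod1 and Dlx1 each had a second probe.

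In the developing forebrain, radial glia divide next to the ventricle and give rise to intermediate progenitors and then to neurons. Sox2 and Pax6 belong to the radial glia of the cortex, and Eomes, also called Tbr2, to the intermediate progenitors. Tbr1 and the Neurod genes belong to the excitatory neurons that follow, whereas Dlx1 and Dlx2 act in the ventral forebrain, where inhibitory neurons arise.

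The study asked how loss of Cugbp1, an RNA-binding protein now named Celf1, affects the RNA of brain and skeletal muscle. Per the labels, knockout (KO) mice came from BayGenomic embryonic stem cells that carry a trap vector ahead of the start codon of Cugbp1. WT and KO mice were both on the C57BL6 background, were taken at 1 day of age and had no treatment. Total RNA was hybridised to Agilent arrays of 1 colour, with 4 WT and 4 KO arrays of brain and 3 WT and 3 KO arrays of muscle. The labels give no litter, sex, brain region or statement that samples were pooled or shared between tissues, so p-values measure the spread between these samples, which may be technical in part.

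The labels were checked first. Celf1 had intensities of 4854, 6961, 5318 and 5969 on the WT brain arrays and of 2086, 1637, 1698 and 1706 on the KO brain arrays. It was lower in KO brain by -1.71 ± 0.08 on the log2 scale (SE, limma, Benjamini-Hochberg adjusted p = 0.000534), to 0.306 of the WT level. Its RNA was thus reduced and not absent in KO brain. In muscle its WT arrays read 3104, 4696 and 3099 and its KO arrays 758, 498 and 528, a log2 difference of -2.77 ± 0.30 without overlap (limma, adjusted p = 0.312). Of 13 markers of maturing neurons, 12 were higher in WT brain than in WT muscle, and all 15 skeletal muscle markers were lower, with medians of 7.84 and -9.95 on the log2 scale. WT brain arrays 3 and 4 stood apart in hypoxia-response genes, whose 16 measured members lay on average 1.29 and 1.37 above their own brain means on the log2 scale, against -0.77 to -0.14 on the other 6 brain arrays. Pituitary genes were bright on WT array 4 and KO array 4 only: the intensities of 8 such genes summed to 55035 and 30468 there and to between 726 and 1317 on the other brain arrays.

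Levels below are log2 intensities minus the 75th percentile of the array, so a level of 0 is the 75th percentile and differences between arrays can be read as log2 ratios. A value within 2-fold of the lowest value of its array is called near the floor. Each probe has its own scale, so levels were compared between arrays and not between genes.

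All 9 genes were higher in brain than in muscle, in WT and in KO mice. In the WT comparison 27.0% of all genes tested were called higher in brain (58.5% in either direction), and in the KO comparison 28.4% (59.4% in either direction). No brain array overlapped a muscle array for any of the 9 genes. Fitted log2 differences lay between 5.67 and 9.54 in WT mice, with limma adjusted p from 9.09e-13 to 2.02e-07, and between 5.82 and 10.6 in KO mice, with adjusted p from 4.30e-13 to 1.56e-07. Where muscle was near the floor, a fitted difference depends on the floor, so the folds below are given as bounds for those genes and no order is read from them.

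**Figure D1:**
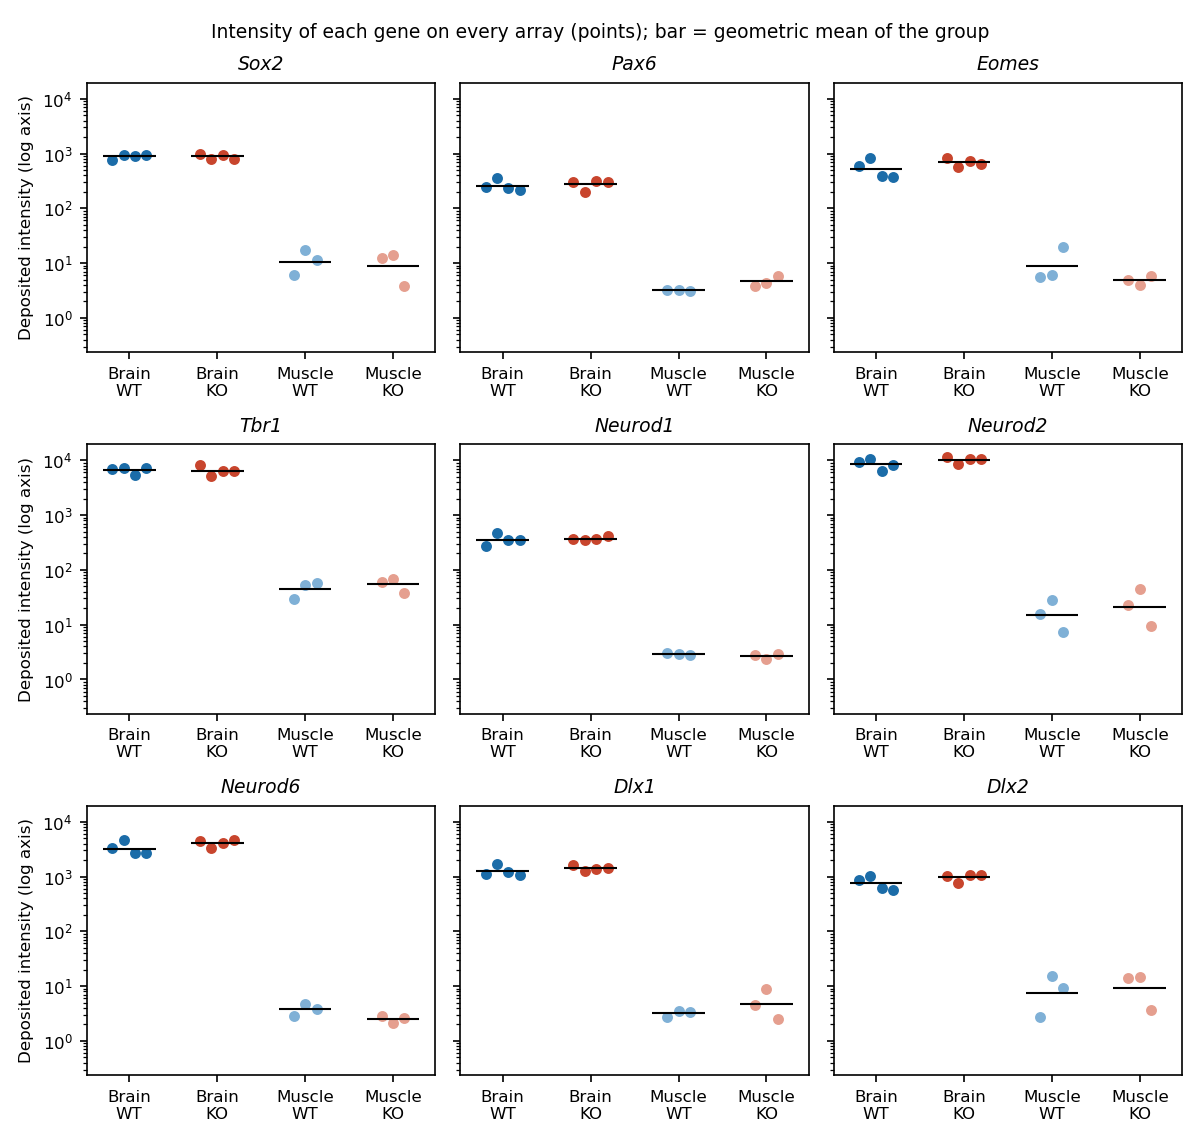
Deposited intensity, before scaling and on a log axis, of the 9 genes on each of the 14 arrays, with 1 panel for each gene, points for arrays and bars for the geometric mean of a group. All 8 brain points lie above all 6 muscle points in every panel, and the WT and KO brain points overlap in every panel.

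Sox2, a high-mobility-group factor that keeps neural stem cells undifferentiated, had muscle intensities of 6.05, 17.3 and 11.6 in WT mice and of 12.5, 14.1 and 3.85 in KO mice. Its brain intensities lay between 754 and 988, and brain was 71.6-fold above muscle in WT mice. Pax6, a paired-domain and homeodomain factor needed for the eye and the cortical radial glia, was near the floor on all 3 WT muscle arrays, at 3.06 to 3.25. Its brain intensities ran from 202 to 355, at least 44.1-fold above muscle in WT mice. Both progenitor genes were thus measured well above muscle on every brain array, with muscle values so dim that the folds rest on small numbers. The second Pax6 probe, near the floor on 2 of 3 WT muscle arrays, was at least 3.53-fold higher in WT brain.

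Eomes, a T-box factor of intermediate progenitors, had muscle intensities of 5.57, 5.97 and 20.0 in WT mice and of 4.92, 4.00 and 5.86 in KO mice, and brain was 50.9-fold above muscle in WT mice. The related T-box factor Tbr1, which specifies deep-layer neurons of the cortex, was 29.8, 53.6 and 57.4 on the WT muscle arrays and 61.0, 68.9 and 37.5 on the KO muscle arrays. It reached between 5135 and 8264 in brain, 128-fold above muscle in WT mice. This Tbr1 probe was not near the floor on any muscle array, whereas the second was near it on 2 of 6 and was at least 28.4-fold higher in WT brain. The second Eomes probe was near the floor on all 6 muscle arrays and at least 5.25-fold higher in WT brain.

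The Neurod genes encode basic helix-loop-helix (bHLH) factors that promote the differentiation of neurons. Neurod1 was near the floor on all 6 muscle arrays, at 2.38 to 3.06, and brain was at least 60.6-fold higher in WT mice and at least 79.2-fold higher in KO mice. Its second probe, also near the floor in WT muscle, was at least 15.3-fold higher in WT brain. Neurod2, which acts in maturing cortical neurons, had muscle intensities of 15.8, 27.7 and 7.40 in WT mice and of 23.1, 44.5 and 9.41 in KO mice, and brain was 491-fold above muscle in WT mice. Neurod6, its close relative in cortical excitatory neurons, was near the floor on all 6 muscle arrays, at 2.13 to 4.77. Brain was at least 553-fold higher for Neurod6 in WT mice and at least 874-fold higher in KO mice.

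Dlx1 and Dlx2 encode homeodomain factors and lie next to each other on chromosome 2. Dlx1 was near the floor on all 3 WT muscle arrays, at 2.77 to 3.59, and brain was at least 214-fold higher. Dlx2 read 2.76, 15.6 and 9.24 on the WT muscle arrays, the lowest of which was near the floor, and brain was at least 70.1-fold higher. The second Dlx1 probe, which the annotation ties to an expressed sequence tag, gave no such difference. It was near the floor on all 6 muscle arrays and on 5 of 8 brain arrays, and its brain level was 0.78 above muscle on the log2 scale in WT mice (limma, adjusted p = 0.155). The Dlx1 result therefore rests on 1 of its 2 probes.

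**Figure D2:**
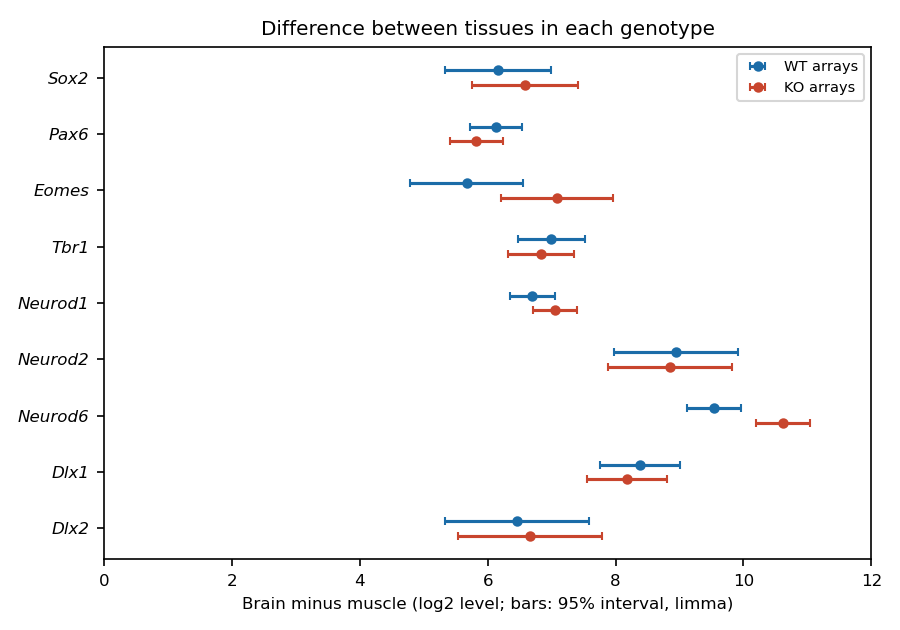
Brain minus muscle difference in log2 level for the 9 genes, in WT mice and in KO mice, with 95% intervals from limma. All 18 points lie between 5.67 and 10.6, and muscle values near the floor make several of them depend on the floor of the array.

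In brain, none of the 9 genes passed the test between KO and WT mice, and the WT and KO arrays overlapped for each of them. Over all genes, 0.0228% were called (5 genes, Celf1 among them), with 0.0137% higher and 0.00914% lower in KO brain, and the KO arrays lay all above the WT arrays in 1.41% of genes and all below in 2.44%. None of the 9 had an unadjusted p under 0.05, while 1828 of the 21893 genes did. The estimates were above 0 for 7 genes and below 0 for Sox2 and Tbr1. Scaling on the median shifts all genes alike: it gave 0.048 for Sox2, 0.0025 for Tbr1 and 0.083 for the median of all genes. With the 75th percentile, the median of the 9 was 0.17 on the log2 scale, against 0.012 over all genes, of which 52.2% lay above 0. RNA of whole tissue was measured, so fewer cells of a type and less RNA per cell cannot be told apart.

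Among the progenitor genes, Sox2 had levels of -0.39, -0.54, -0.26 and -0.34 on WT arrays 1 to 4 and of -0.38, -0.40, -0.25 and -0.59 on KO arrays 1 to 4. The 2 groups covered the same range, with mean intensities of 889 in WT and 887 in KO brain. The difference was -0.023 ± 0.11 (SE, limma, adjusted p = 0.938), with a 95% interval from -0.27 to 0.23. Pax6 levels were -2.02, -1.98, -2.24 and -2.43 in WT and -2.10, -2.39, -1.84 and -1.99 in KO brain. The highest value was on KO array 3 and the 2 lowest were on WT array 4 and KO array 2, and the difference was 0.084 ± 0.15 (adjusted p = 0.831, interval -0.27 to 0.44).

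Eomes had brain intensities of 585, 830, 382 and 378 in WT and of 829, 566, 739 and 656 in KO mice, or levels of -0.75, -0.75, -1.52 and -1.63 in WT and of -0.64, -0.91, -0.63 and -0.87 in KO mice. WT arrays 3 and 4 were low, while WT arrays 1 and 2 lay among the KO arrays. The difference was 0.40 ± 0.23 on the log2 scale, a 1.32-fold level in KO brain (limma, adjusted p = 0.585), with an interval from 0.921-fold to 1.90-fold. The SD of the level was 0.48 over the WT arrays and 0.15 over the KO arrays. Tbr1 levels were 2.83, 2.38, 2.31 and 2.59 in WT and 2.68, 2.27, 2.50 and 2.39 in KO brain. The KO values lay within or just below the WT range, and the difference was -0.068 ± 0.15 (adjusted p = 0.856, interval -0.40 to 0.27).

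Neurod1 levels varied little among the arrays, with -1.83, -1.58, -1.65 and -1.76 on the WT and -1.81, -1.59, -1.65 and -1.55 on the KO brain arrays. Its difference was 0.056 ± 0.10 (adjusted p = 0.828, interval -0.18 to 0.29). Neurod2 levels were 3.22, 2.90, 2.56 and 2.79 in WT and 3.17, 3.01, 3.19 and 3.16 in KO brain, with the 2 lowest values on WT arrays 3 and 4 and the highest on WT array 1. Its difference was 0.27 ± 0.14 (limma, adjusted p = 0.580, interval -0.062 to 0.60). Neurod6 levels were 1.73, 1.71, 1.27 and 1.22 in WT and 1.78, 1.65, 1.87 and 1.96 in KO brain. Again WT arrays 3 and 4 were lowest, and WT arrays 1 and 2 lay above KO array 2. The Neurod6 difference was 0.33 ± 0.15, or 1.26-fold with an interval from 0.990-fold to 1.60-fold, and its unadjusted p of 0.0583 was the smallest of the 9 (limma, adjusted p = 0.580).

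Dlx1 levels were 0.20, 0.28, 0.13 and -0.14 in WT and 0.34, 0.25, 0.27 and 0.27 in KO brain, a difference of 0.17 ± 0.11 (limma, adjusted p = 0.614, interval -0.083 to 0.42). Dlx2 levels were -0.18, -0.45, -0.80 and -1.05 in WT and -0.32, -0.46, -0.09 and -0.17 in KO brain. For both genes WT arrays 3 and 4 were the 2 lowest of the 8, and the other WT arrays lay within or close to the KO range. The Dlx2 difference was 0.36 ± 0.19, or 1.28-fold with an interval from 0.944-fold to 1.75-fold (limma, adjusted p = 0.580).

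WT brain arrays 3 and 4 were thus the 2 lowest brain arrays for Eomes, Neurod2, Neurod6, Dlx1 and Dlx2, which are 5 of the 9 genes. On each of them 7 of the 9 genes lay below their own brain mean, with mean deviations of -0.22 and -0.28 on the log2 scale. On the other 6 brain arrays the mean deviation ran from -0.035 to 0.18. Sox2 did not follow them and lay 0.13 and 0.058 above its brain mean on these arrays. The deviations reached -0.56 and -0.67 for Eomes, -0.36 and -0.61 for Dlx2, and -0.38 and -0.43 for Neurod6.

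**Figure D3:**
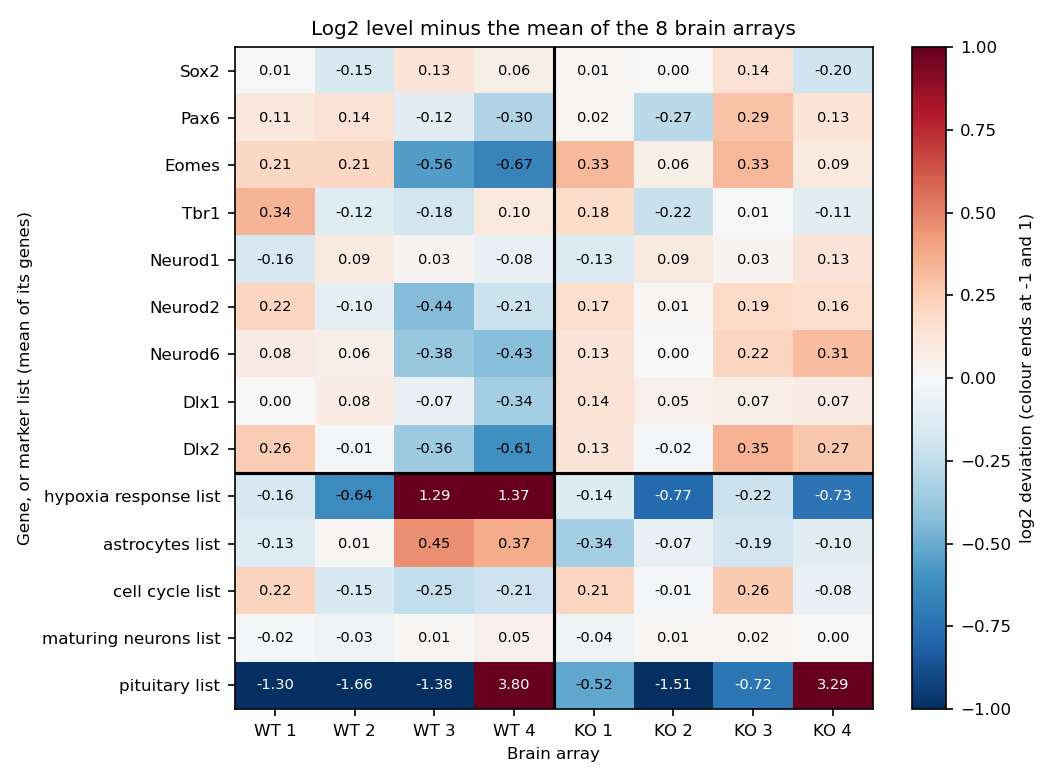
Deviation of each of the 9 genes from its own mean over the 8 brain arrays, on the log2 scale, with the mean deviation of 5 marker lists in the lower rows and 1 column for each brain array (colours end at -1 and 1). Among the 9 genes, WT arrays 3 and 4 hold the lowest values, down to -0.67 for Eomes on WT array 4, and for KO array 3 no gene lies below 0.

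Other gene groups also stood apart on these 2 arrays. Summed intensities of the hypoxia-response genes were 289396 and 324139 there, between 105497 and 126646 on the other WT arrays, and between 92961 and 143026 on the KO arrays. Mean deviations of 14 astrocyte markers were 0.45 and 0.37 on these arrays and between -0.34 and 0.01 on the others. Cell cycle genes lay at -0.25 and -0.21 there, at 0.22 and -0.15 on WT arrays 1 and 2, and between -0.08 and 0.26 on the KO arrays. The 13 markers of maturing neurons stayed between -0.04 and 0.05 on all 8 brain arrays. Of the lists followed below, midbrain and hindbrain regulators lay at -0.28 and -0.17 on WT arrays 3 and 4. The excitatory lineage lay at -0.038 and 0.021 there, and the inhibitory lineage at -0.027 and -0.029. Radial glia regulators lay at -0.078 and -0.026, and bHLH partners and inhibitors at -0.15 and -0.0016. The part of any of these gene groups in the low values of the 9 factors was not tested.

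Without WT arrays 3 and 4, which were known from earlier results of these data to stand apart, the differences of Eomes, Dlx2, Neurod6, Neurod2 and Dlx1 came closer to 0. These 5 genes had their lowest brain values on the 2 arrays. Leaving the arrays out therefore had to lower their differences, and only the size of the change is informative. By its brighter probe, Eomes went from 0.40 to -0.0071 (interval -0.33 to 0.31), and Dlx2 went from 0.36 to 0.056 (interval -0.32 to 0.43). Neurod6 went from 0.33 to 0.095 and Neurod2 from 0.27 to 0.075. Dlx1 went from 0.17 to 0.045, whereas Neurod1 stood at 0.060 against 0.056. Tbr1 moved away from 0, from -0.068 to -0.14, while Sox2 went from -0.023 to 0.060 and Pax6 from 0.084 to -0.083. The median of the 9 genes was then 0.056, with 6 estimates above 0 and 3 below, and limma adjusted p values lay between 0.993 and 0.997 with 2 WT and 4 KO arrays. Without WT array 4 and KO array 4, the arrays with bright pituitary genes, the median was 0.085 and the range -0.034 to 0.28.

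**Figure D4:**
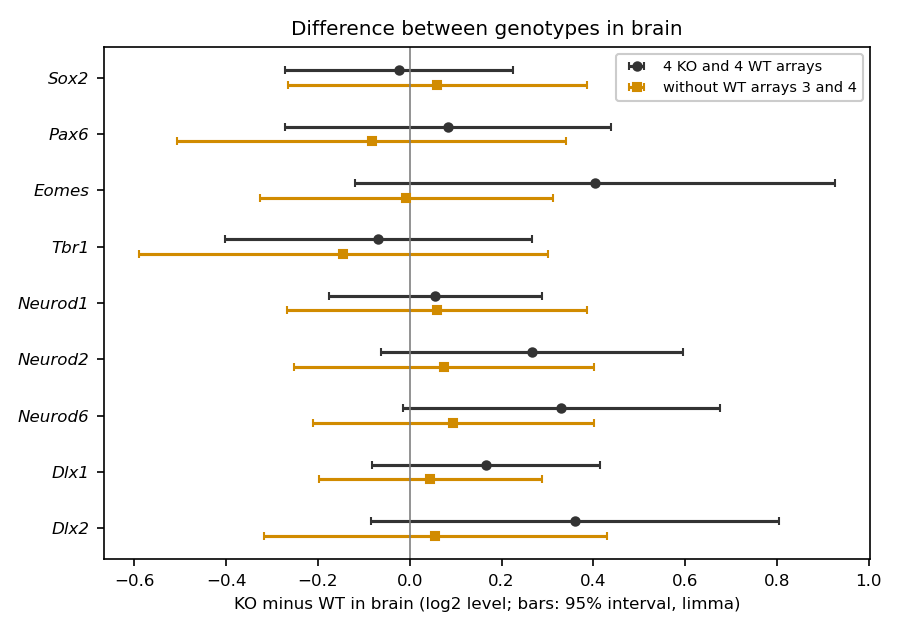
KO minus WT difference in log2 level in brain for the 9 genes, with 95% intervals from limma, over all 8 brain arrays and without WT arrays 3 and 4. All 18 intervals include 0, and the point of the brighter Eomes probe moves from 0.40 to -0.0071. WT arrays 3 and 4 held the lowest brain values of that probe.

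Promoter sequences are shown for Eomes, Neurod2, Neurod6 and Dlx2, the genes with the largest differences between KO and WT brain and with their lowest values on the same 2 arrays, and for Tbr1 as the T-box relative of Eomes. They are the 250 bases before the gene start in RefSeq on build GRCm38.p6, 5′ to 3′ on the strand of the gene. Eomes lies at chr9:118477939-118478188 on the plus strand and Tbr1 at chr2:61804203-61804452 on the plus strand. In this pair, capitals mark the best ungapped match between the 2 windows, 31 bases long with 24 identical bases.
Eomes: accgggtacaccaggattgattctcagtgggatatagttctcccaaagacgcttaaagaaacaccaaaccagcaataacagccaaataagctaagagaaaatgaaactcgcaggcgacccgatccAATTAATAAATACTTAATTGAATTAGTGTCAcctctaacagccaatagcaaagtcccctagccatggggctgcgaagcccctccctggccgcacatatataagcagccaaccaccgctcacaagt
Tbr1: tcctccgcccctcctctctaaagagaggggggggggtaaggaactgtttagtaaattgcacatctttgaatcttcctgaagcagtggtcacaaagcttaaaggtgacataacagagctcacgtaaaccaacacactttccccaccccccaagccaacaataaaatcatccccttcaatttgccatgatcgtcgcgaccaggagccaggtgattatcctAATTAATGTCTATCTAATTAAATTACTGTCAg
This run begins 125 bases before the start in Eomes and 32 bases before it in Tbr1, and 77.4% of its bases are identical. Its score of 17 was the highest of the 36 pairs among the 9 genes, where the next was 15 and the median 10. The second Pax6 start in RefSeq gave a further window, so 10 windows were searched.

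In the other windows, capitals mark the E-box CANNTG, the letters that bHLH factors such as the Neurod proteins are known to bind. Neurod2 lies at chr11:98329646-98329895, Neurod6 at chr6:55681264-55681513 and Dlx2 at chr2:71546755-71547004, all 3 on the minus strand.
Neurod2: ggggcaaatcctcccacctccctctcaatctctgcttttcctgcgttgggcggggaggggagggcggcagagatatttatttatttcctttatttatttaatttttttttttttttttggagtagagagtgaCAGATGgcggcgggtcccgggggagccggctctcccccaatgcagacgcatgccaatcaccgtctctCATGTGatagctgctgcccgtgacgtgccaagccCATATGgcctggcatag
Neurod6: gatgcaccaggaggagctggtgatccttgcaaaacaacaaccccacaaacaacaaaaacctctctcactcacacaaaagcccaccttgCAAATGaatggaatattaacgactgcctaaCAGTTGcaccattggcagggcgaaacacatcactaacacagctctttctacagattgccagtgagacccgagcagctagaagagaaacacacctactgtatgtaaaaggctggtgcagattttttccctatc
Dlx2: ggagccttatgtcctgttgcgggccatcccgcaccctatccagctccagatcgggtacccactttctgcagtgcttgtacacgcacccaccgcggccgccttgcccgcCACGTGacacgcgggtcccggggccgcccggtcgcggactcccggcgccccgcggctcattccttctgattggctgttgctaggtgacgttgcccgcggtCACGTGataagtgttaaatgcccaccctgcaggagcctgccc
The E-box, which is its own complement on the other strand, occurred 3 times in Neurod2, 2 times in Neurod6 and 2 times in Dlx2. It was present in 6 of the 10 windows of the 9 genes and in 66.2% of 32851 promoter windows of the same length. CCAAT, searched on both strands, was in 6 of the 10 windows against 33.8% of all windows. TATAA was in 2, those of Eomes and Neurod1, against 22.8%, at 28 and 29 bases before the start. TAATTA, a homeodomain motif, was in 1, that of Tbr1 with 2 matches, against 4.84%. A match describes letters and not a bound site.

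The second probes were then read on their own. The second Eomes probe had intensities of 35.7, 42.7, 30.3 and 19.1 in WT brain and of 42.1, 44.0, 60.3 and 84.0 in KO brain, with the lowest value again on WT array 4. In the fit of all named probes its difference was 0.83 ± 0.30 on the log2 scale (limma, unadjusted p = 0.0252, adjusted p = 0.569), and its groups overlapped. Its levels were -4.79 and -5.03 on WT arrays 1 and 2, and -4.94, -4.59, -4.24 and -3.83 on KO arrays 1 to 4. For this probe most KO levels thus stayed above WT arrays 1 and 2, unlike for the brighter probe. No fit without WT arrays 3 and 4 was made for it. The second probes of Tbr1 and Neurod1 differed by 0.018 ± 0.22 and 0.039 ± 0.20. The second Pax6 probe spread widely, with a difference of 0.43 ± 0.53, and the second Dlx1 probe differed by -0.33 ± 0.46. Of the 14 probes, 11 estimates were above 0 and 1 had an unadjusted p under 0.05, against 51.1% and 8.68% of all named probes.

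The genes around the 9 factors in their pathways were followed as 5 lists, and none of their genes was called between KO and WT brain. The 2 genes named from each list had its smallest p values, so groups without overlap are likelier among them. Groups overlapped for Gli3, Insm1, Gsx2, Lhx8, Gata2 and Tcf12 and not for Sox3, Slc17a7, Pax8 and Hes6. Over all genes, KO levels lay all above WT levels in 1.41% and all below in 2.44%. Of 21 measured regulators of neural stem cells and radial glia, 11 had estimates above 0, with a median of 0.030. The 2 smallest p values were those of Sox3, a close relative of Sox2, and Gli3, a transcription factor of the hedgehog pathway. Sox3 intensities were 641, 930, 603 and 661 in WT and 1070, 797, 815 and 1005 in KO brain, with all KO levels above all WT levels after scaling and a difference of 0.37 ± 0.11 (limma, adjusted p = 0.580). Gli3 differed by 0.52 ± 0.16 (adjusted p = 0.580), with overlapping groups. Without WT arrays 3 and 4 the differences were 0.25 for Sox3 and 0.33 for Gli3. These arrays held the 2 lowest WT levels of Sox3, Gli3, Insm1, Gsx2, Lhx8, Pax8, Hes6 and Tcf12, and the 2 highest of Slc17a7. Leaving them out therefore had to lower the differences of the former genes and raise that of Slc17a7. Only the size of the change is informative, here and for the lists below.

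Of 24 genes of the cortical excitatory lineage, 13 were above 0, with a median of 0.051. Slc17a7, the vesicular glutamate transporter VGLUT1, had intensities of 157, 281, 271 and 404 in WT and of 143, 158, 128 and 186 in KO brain. All its KO levels lay below all WT levels, by -0.81 ± 0.24 (limma, adjusted p = 0.580), and by -0.46 without WT arrays 3 and 4. Insm1, a zinc-finger factor of neuronal progenitors, differed by 0.51 ± 0.24, and by 0.11 without these arrays. Of 25 genes of the forebrain inhibitory lineage, 12 were above 0, with a median of -0.0081. In that list Gsx2, a homeodomain factor of ventral progenitors, differed by -0.47 ± 0.17 and by -0.57 without these arrays, and Lhx8, a LIM-homeodomain factor of cholinergic neurons, by 0.47 ± 0.18, or 0.18 without these arrays. Neither passed the test, at an adjusted p of 0.580 for both in limma.

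Of 28 regulators of the midbrain, the hindbrain and their boundary, 23 had estimates above 0, with a median of 0.13, and of 0.11 without WT arrays 3 and 4. In this list 6 genes had an unadjusted p under 0.05, and none passed the adjustment over all genes. Among all 21893 genes tested, 1828 had an unadjusted p under 0.05 and 52.2% had estimates above 0. Pax8, a paired-domain factor, had intensities of 53.6, 80.1, 54.9 and 61.0 in WT and of 77.7, 94.5, 105 and 143 in KO brain. Its KO levels all lay above its WT levels, by 0.72 ± 0.19 (limma, adjusted p = 0.580), and by 0.65 without WT arrays 3 and 4. Gata2, a zinc-finger factor of midbrain inhibitory neurons and of blood progenitors, differed by 0.60 ± 0.17 (adjusted p = 0.580), and by 0.52 without them. Markers of other tissues also differed in estimate in the same brains, with none called. Of 5 measured red blood cell markers 4 had estimates above 0, with a median of 0.45, or 0.49 without these arrays, and summed intensities of 105074 to 139239 in WT and 130242 to 219057 in KO brain. Of 15 skeletal muscle markers 14 had estimates below 0, with a median of -0.38, or -0.66 without these arrays. Their sum was 6470 on WT array 2, against 2745 to 2915 on the other WT arrays and 2329 to 3373 in KO brain. The mean log2 deviations of the skeletal muscle markers were 0.13, 0.85, 0.028 and -0.12 on WT arrays 1 to 4. On the KO arrays they lay between -0.31 and -0.11. WT array 2 was thus the highest by both measures, and it weighs more when WT arrays 3 and 4 are left out. The part of these tissues in the list's estimates was not tested. Of 10 bHLH partners and inhibitors, 7 were above 0, with a median of 0.13, and of 0.026 without the 2 arrays. Hes6, which opposes the repressor Hes1, differed by 0.33 ± 0.12 with all KO levels above all WT levels (adjusted p = 0.580), and by 0.16 without the 2 arrays. Tcf12, a partner of the Neurod proteins, differed by 0.19 ± 0.12 (adjusted p = 0.605), and by 0.10 without them.

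Between tissues in WT mice, 27.0% of all genes were called higher and 31.4% lower in brain. Of these lists, 20 of 25 genes of the inhibitory lineage and 18 of 24 of the excitatory lineage were called higher in brain, with 3 and 1 called lower. Among radial glia regulators 10 of 21 were higher and 6 lower. For the midbrain and hindbrain list the counts were 16 and 5 of 28, and for the bHLH list 6 and 2 of 10. Gli3, Gata2 and Tcf12 were among those lower in brain, by -1.08, -1.79 and -1.61 on the log2 scale (limma, adjusted p = 0.0047, 0.000915 and 2.62e-06).

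In muscle, none of the 9 genes and none of all genes were called between KO and WT mice by limma, which is 0% of the genes tested, while 341 genes had an unadjusted p under 0.05. Neurod6 was the only one of the 9 whose groups did not overlap, with WT muscle at 2.86, 4.77 and 3.89 and KO muscle at 2.85, 2.13 and 2.61. Over all genes, the KO arrays lay all above the WT arrays in 1.86% and all below in 2.09%. All 6 of these values were near the floor, where they give a bound and no level. The KO effect in brain minus that in muscle was called for none of the 9, against 0.00914% of all genes. This difference of effects was 1.08 ± 0.28 on the log2 scale for Neurod6 and 1.41 ± 0.57 for Eomes, the 2 with an unadjusted p under 0.05 (limma, adjusted p = 1.00 for both). Neurod6 was near the floor on all 6 muscle arrays and Eomes on 1. In muscle alone Eomes differed by -1.01 ± 0.54, with an intensity of 20.0 on WT array 3 and of 4.00 to 5.97 on the other muscle arrays. Its difference of effects thus leans on 1 dim muscle array.

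On chromosome 2, which also holds Celf1, lie 5 of the 9 genes (Pax6, Tbr1, Neurod1, Dlx1 and Dlx2). Of the 1811 genes tested on this chromosome, 2, Celf1 itself included, were among the 5 called in KO brain, and none of the 9 factors was. The share called over all genes tested was 0.0228%.

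The genes whose levels followed each factor most closely over the 8 brain arrays were sought among 6394 or 6395 genes with a mean brain level above 0. For Eomes they were Kpnb1 and Coro1c, with Pearson r of 0.993 and 0.991, and for Neurod6 Cnot6 and Copb2, with r of 0.995 and 0.990. Fcf1 and Pop4 were closest to Neurod2, and Rbmxl1 and Ctbp1 to Dlx2, with r between 0.966 and 0.989. For Dlx1 they were Slc39a11 and Nf2, for Tbr1 Nudt10 and Dctn3, for Pax6 Nsd2 and Ube2n, for Sox2 Rsu1 and Copg2, and for Neurod1 Iqsec3 and Zfpm1, with r from 0.941 to 0.970. All these values share the same 8 arrays, including WT arrays 3 and 4, and were picked as the highest, so they describe likeness on these arrays only.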

How the data were processed

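RNA of 14 mouse samples, grouped by tissue and genotype as labelled, was measured on Agilent arrays of 1 colour. The deposited table holds intensity values on a linear scale for 55681 probes, made with Agilent Feature Extraction per the submitters' processing notes (version and normalization: not given in the sources used here), in arbitrary units. The arrays' 75th percentiles ran from 883 to 1398, their lowest values from 2.04 to 3.51, and 129 cells were blank. Detection flags were not used, and precision is limited by the small number of arrays. Symbols came from the platform annotation (25055 probes unlisted).

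From these, log2 intensities minus each array's 75th percentile over named probes were computed, with 1 probe a gene (highest mean). KO and WT were compared within each tissue, and tissues in a model with 4 group means, by limma 3.58.1 in R 4.3.3 (2-sided, Benjamini-Hochberg adjusted p under 0.05 over all genes). Scripts were tested on simulated data. A fold against muscle values near the floor used the higher of the value and 2 times the array's lowest value. The 9 factors, the lists and the tests were chosen with earlier results of these data known. Named were all 9 factors with all probes, Celf1, the 2 genes of each pathway list with the smallest p in brain, and the 2 genes most correlated with each factor. Alternatives covered scaling, a pseudocount, filters, variance models, left-out arrays and array numbers as blocks. Deviations of same-numbered brain and muscle arrays correlated at r of 0.12, 0.23 and 0.21 in WT and of 0.19, 0.010 and 0.012 in KO mice. Unlike-numbered WT arrays reached 0.17, and the labels give no pairing.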

Additional observations from a re-analysis of the deposited data

Results flagged for a closer look

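Neurod2 in KO brain had 1 array far from the other 3: its level was 3.01 on KO array 2, against 3.16 to 3.19 on KO arrays 1, 3 and 4. The gap to the nearest array passed Dixon's 95% criterion for 4 samples. The 14 probes in the 2 brain groups gave 28 such checks and 1 passed, while chance gives about 1 in 20.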

How the results depend on the processing

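None of the 9 factors was called between KO and WT brain under any of the 20 alternatives. The smallest limma adjusted p values, 0.0677 for Neurod6 and 0.0705 for Eomes, came with array weights, where 36 genes were called. Neurod1, Neurod2, Neurod6, Dlx1 and Dlx2 stayed above 0 under all alternatives that included them. Scaled on the median, which raises all genes alike, Sox2 was 0.048 and Tbr1 0.0025. Without WT brain arrays 3 and 4, Sox2 was 0.060, Pax6 -0.083 and Eomes -0.0071. Without WT array 4 and KO array 4, an alternative chosen after seeing the data, Sox2 was 0.054 and Pax6 -0.034. Leaving out 1 array at a time gave -0.076 to 0.038 for Sox2, -0.0031 to 0.19 for Pax6, -0.14 to 0.033 for Tbr1, 0.25 to 0.54 for Eomes, 0.013 to 0.11 for Neurod1, 0.17 to 0.38 for Neurod2, 0.24 to 0.41 for Neurod6, 0.081 to 0.22 for Dlx1 and 0.22 to 0.51 for Dlx2. The lowest values came without WT array 4 for Eomes, Neurod6, Dlx1 and Dlx2, without WT array 3 for Neurod2 and without WT array 1 for Neurod1. With array weights Eomes was 0.64. The cause was not tested.

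The count of genes called in brain (5) was 3 without scaling, 3 with genes above the median level only, 7 with all named probes (9 probes, 3 of them for Celf1), 36 with array weights, 2 with all 14 arrays, and 0 without WT arrays 3 and 4 or without WT array 4 and KO array 4. It ranged from 1 to 9 when 1 array was left out, with the value of 1 on leaving out array 3 or 4 of the WT mice or array 2 of the KO mice. The Celf1 call in brain was lost without WT arrays 3 and 4 (-1.71, adjusted p = 0.0800) and without both arrays numbered 4 (-1.67, adjusted p = 0.0589). In muscle the count (0) was 1 with 50 added to each intensity, 1 with genes above the median level only, 9 with all 14 arrays in the model and 0 to 1 when 1 array was left out, and Celf1 passed at -2.77 with all 14 arrays (adjusted p = 5.35e-05). Among genes above the median level, 8106 (WT) and 7996 (KO) genes differed between tissues, against 12798 and 13000, with 2 of the 9 factors called because that filter kept only Tbr1 and Neurod2. The count for the difference between the tissues' KO effects (2) was 1 with 50 added, 1 with array weights, 1 without WT brain arrays 3 and 4, and 1 to 8 when 1 array was left out, 8 of them without KO muscle array 2.

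The labels do not pair WT with KO by array number. Same-numbered brain deviations correlated at 0.039, -0.045, 0.079 and 0.10, and unlike-numbered ones at -0.11 to 0.062. Such small values cannot decide whether the numbers pair the arrays. With the number as a replicate block, 0 genes were called in brain, Celf1 stood at -1.71 (adjusted p = 0.230), and the difference between the tissues' effects had 1 call; none of the 9 factors changed its call. The block left all 9 factors called between the tissues. The deposited values carry no detection flags used here, so dim muscle values bound the folds and do not measure them.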
